A study of Rattus norvegicus with 24 samples.

Results

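Genes linked to macrophages and to complement component C1q were followed across colonic epithelial cells of rats born growth restricted or as controls and kept on a high-fat diet or on chow. The 10 genes are Fcer1g, Tyrobp, Aif1, Cd14, C1qa, C1qb, C1qc, Apoe, Cd68 and Csf1r, and they were chosen by their log2 differences between high-fat diet and chow in these same arrays. The diet comparisons of these genes are therefore given as a description, with no p-value, and counts past the threshold in them stand only beside the share of all probes and support nothing. Of the 10 genes, 8 had a probe on the array, with 1 probe each, out of 13337 genes with a probe in all. The platform's gene table pairs no probe with Cd68 or Csf1r, which were not analysed here. All 8 probes were among the 10193 probes tested, that is, detected above the negative controls (detection p-value under 0.05) on at least 6 of 24 arrays.

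The animals were Sprague Dawley rats aged 8 months. Rats born with intra-uterine growth retardation (IUGR) made up the groups RHFD, fed the high-fat diet (n = 3 samples), and RND, fed chow (n = 6), while rats born as controls made up CHFD, fed the high-fat diet (n = 5), and CND, fed chow (n = 6). Each group filled 6 arrays, 3 on each of 2 chips, and 4 title numbers (RHFD 21B, RHFD 25B, RHFD 3A and CHFD 10B) stood on 2 arrays each and were counted as 1 sample each. The labels do not say whether title numbers are separate animals or what their letter means, so p-values measure the spread between these samples, which may be technical. How growth restriction was induced is not given in the sources used here. In CND the chip 1 samples carry the letter A and the chip 2 samples the letter B, so letter and chip cannot be told apart there. All RND samples, and the CHFD samples of chip 1, carry B. On chip 1 the letter therefore also separates CND from these groups. Median signal per array was 92 to 112, and 8303 to 9872 of 22523 probes were detected per array.

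Macrophages of the gut wall take up debris, dying cells and microbes. FCER1G and TYROBP are membrane adaptors whose cytoplasmic ITAM motifs pass on signals from Fc receptors and other activating receptors of myeloid, mast and natural killer cells. C1QA, C1QB and C1QC are the chains of C1q, which binds antibody complexes and dying cells, starts the classical complement pathway and is made mainly by macrophages and dendritic cells rather than by the liver. AIF1 (IBA1) binds actin and calcium in macrophages, CD14 hands lipopolysaccharide to the TLR4 receptor, APOE carries lipid, CD68 is a lysosomal glycoprotein, and CSF1R is the receptor for the growth factors CSF1 and IL34. Several of them are not confined to macrophages: natural killer cells express FCER1G and TYROBP, and epithelial cells can express CD14.

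On the GRCr8 assembly of the rat genome the 3 C1q genes lie side by side on chromosome 5, C1qb at 154402276 to 154407827, C1qc at 154410845 to 154414208 and C1qa at 154417086 to 154419933. Fcer1g lies on chromosome 13 (86181908 to 86186766), Tyrobp on chromosome 1 (94800372 to 94804307), Apoe on chromosome 1 (88481889 to 88485816), Aif1 on chromosome 20 (3651435 to 3657341) and Cd14 on chromosome 18 (28609558 to 28611409). RefSeq promoter sequences, 250 bases before to 50 after an annotated start, matched 6 of the 10 genes. Those of C1qa and C1qb are shown because these genes varied together between samples, and that of Cd14 because it varied apart from them, as described further on. Capitals mark matches on either strand to GAGGAA, the core bound by PU.1, the myeloid ETS factor encoded by Spi1, and to GGAAGT, another ETS core, and a match on the opposite strand is printed as its reverse complement. A GAGGAA match followed by the letters GT also holds a GGAAGT match, so the motifs can overlap. GAGGAA occurs in 27.6% and GGAAGT in 22.6% of the 33469 rat promoters of this length.
C1qa promoter (chr5:154419884-154420183, minus strand): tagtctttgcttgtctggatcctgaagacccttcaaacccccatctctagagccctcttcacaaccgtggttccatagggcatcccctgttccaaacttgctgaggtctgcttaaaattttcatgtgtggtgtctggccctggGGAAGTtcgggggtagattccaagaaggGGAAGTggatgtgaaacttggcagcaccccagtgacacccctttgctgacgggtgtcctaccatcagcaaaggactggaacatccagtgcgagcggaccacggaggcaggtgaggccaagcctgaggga
C1qb promoter (chr5:154407778-154408077, minus strand): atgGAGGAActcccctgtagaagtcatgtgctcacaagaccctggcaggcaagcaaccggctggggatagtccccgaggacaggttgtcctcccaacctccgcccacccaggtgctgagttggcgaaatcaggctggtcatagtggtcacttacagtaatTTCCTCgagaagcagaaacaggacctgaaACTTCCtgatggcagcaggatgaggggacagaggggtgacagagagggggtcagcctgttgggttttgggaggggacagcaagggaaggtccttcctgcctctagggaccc
Cd14 promoter (chr18:28611109-28611408, minus strand): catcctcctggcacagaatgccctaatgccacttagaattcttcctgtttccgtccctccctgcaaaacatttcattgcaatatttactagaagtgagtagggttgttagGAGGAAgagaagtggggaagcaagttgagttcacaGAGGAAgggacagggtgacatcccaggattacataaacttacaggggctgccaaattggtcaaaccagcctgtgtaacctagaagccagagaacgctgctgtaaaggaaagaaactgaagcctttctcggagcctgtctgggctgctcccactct
The C1qa window held 2 GGAAGT matches and 0 GAGGAA matches, that of C1qb held 1 and 2, and that of Cd14 held 0 and 2. Given these shares over all promoters, such matches are common, and they describe letters rather than binding. The C1qa and C1qb windows reach beyond the gene spans given above, whereas the Cd14 window lies wholly inside its span. The Cd14 matches are thus within the annotated gene, and no contrast with the C1q windows is drawn.

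Before the single genes, the labelled cell type was checked. All 12 epithelial marker genes with a probe were tested, and their mean log2 level was 12.55 to 12.73 in RHFD, 12.40 to 12.77 in CHFD, 12.18 to 12.68 in RND and 12.25 to 12.86 in CND. None of 10 fibroblast and smooth muscle markers passed the detection filter. Of 29 further mononuclear phagocyte genes with a probe, 11 were tested and 9 were detected on no array: Adgre1 (F4/80), Cd163, Fcgr2b, Itgam (CD11b), Lyve1, Marco, Mrc1 (CD206), Tlr7 and Vsig4. Spi1 and the fractalkine receptor gene Cx3cr1 were each detected on 2 arrays, Trem2 on 3 and the oxidase subunit gene Cybb on 1. Of the 11 tested, Ctss, Lgmn, Laptm5 and Pla2g7 were detected on 24 arrays, Ncf1 on 23, Fgr on 22, Clec10a on 19, Ms4a7 on 17, Cd86 on 15, Ccr2 on 8 and Clec4a1 on 7. Some further genes of this list were thus measured, while several surface markers of tissue macrophages were below detection on all arrays. Which cells expressed the detected genes was not tested.

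All 8 genes had higher means on high-fat diet than on chow in both birth groups. For 7 of the 8 the group means ran RHFD, CHFD, RND, CND from high to low. Cd14 was the exception, with CHFD above RHFD. In bulk samples such as these, fewer cells of a type and less RNA per cell cannot be told apart. Levels below are log2 intensities after background correction and quantile normalization, and levels of different probes are not comparable with each other.

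**Figure D1:**
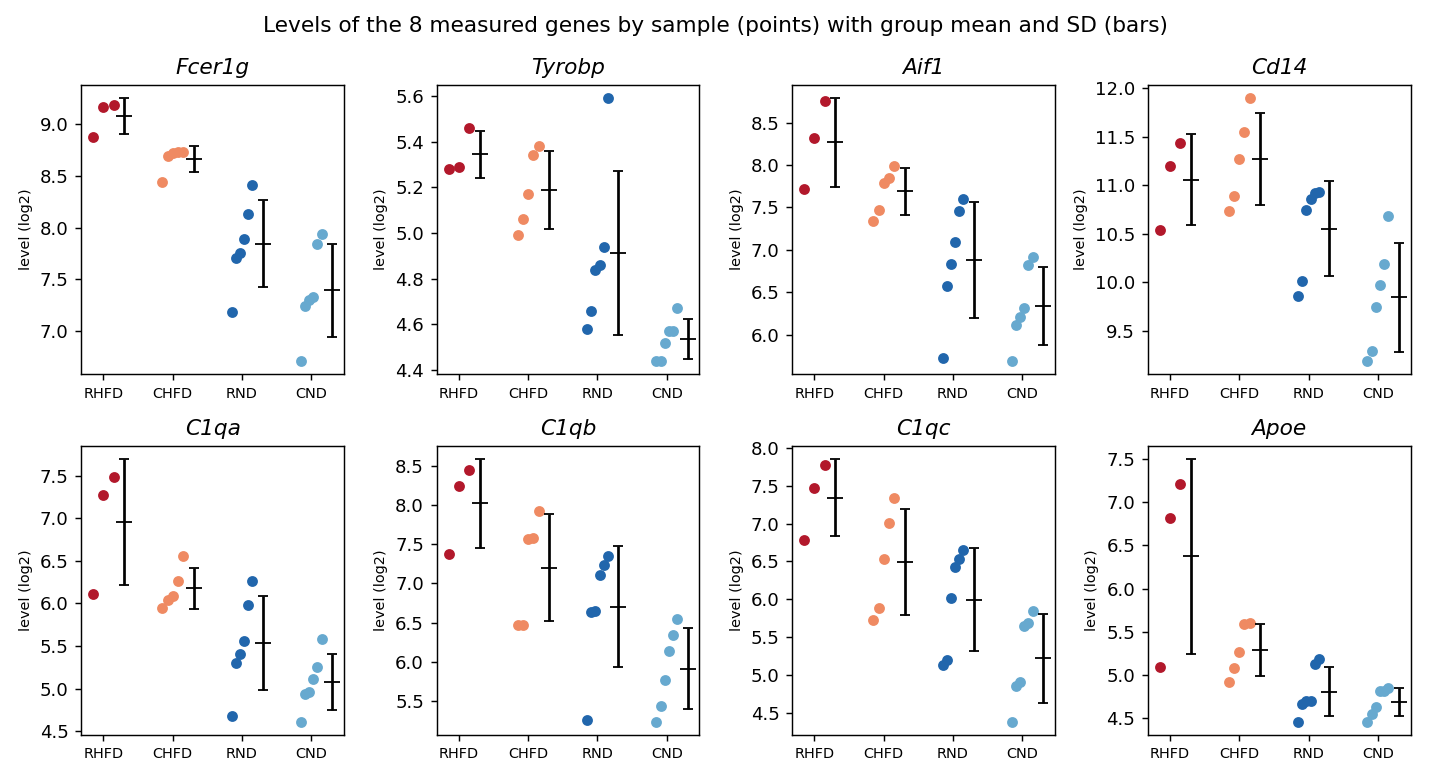
Log2 level of each of the 8 genes (vertical axis, own scale per panel) in RHFD, CHFD, RND and CND. Points are samples and bars give the group mean and SD. For Fcer1g all 3 RHFD points lie above all 5 CHFD points, which in turn lie above all 6 RND points.

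Fcer1g (probe ILMN_1351139), the common gamma chain of Fc receptors, was the gene whose groups were most cleanly apart. Its log2 level was 8.88 in RHFD 21B, 9.17 in RHFD 25B and 9.19 in RHFD 3A. In CHFD it was 8.73 in 10B, 8.72 in 4A, 8.44 in 22B, 8.69 in 28B and 8.73 in 8B. RHFD lay above CHFD without overlap. On chow the lowest, median and highest levels were 7.18, 7.82 and 8.41 in RND and 6.71, 7.31 and 7.94 in CND. Thus every high-fat sample exceeded every chow sample, and the 2 chow groups overlapped. The log2 difference was 1.23 (SE 0.23) between RHFD and RND and 1.27 (SE 0.20) between CHFD and CND, a fold of 2.35 in IUGR and 2.41 in control-born rats.

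Tyrobp (ILMN_1372404), the partner adaptor also known as DAP12, was dim. It was detected on 6 of 6 arrays in RHFD, 6 in CHFD, 4 in RND and 0 in CND, so that it passed the detection filter mainly through the high-fat arrays. Levels were 5.28, 5.29 and 5.46 in RHFD samples 21B, 25B and 3A. Those of CHFD were 5.34 in 10B, 4.99 in 4A, 5.17 in 22B, 5.38 in 28B and 5.06 in 8B. RND ran from 4.58 over a median of 4.85 to 5.59, and CND from 4.44 over 4.54 to 4.67. CND stood below all CHFD samples, whereas RND sample 33B, at 5.59, was above every high-fat sample. Since no CND array measured Tyrobp well above background, its level there is a bound: it was at least 1.26-fold higher in CHFD than in CND, with measured means of 5.19 and 4.53 and a fitted difference of 0.65 (SE 0.16). The bound sets the CHFD mean against CND values raised, array by array, to the dimmest detected probe. In IUGR rats the difference between RHFD and RND was 0.43 (SE 0.19).

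Aif1 (ILMN_1359219) differed between diets about as much as Fcer1g and was more variable within groups. RHFD 21B had 7.72, RHFD 25B 8.32 and RHFD 3A 8.76. Among CHFD samples it was 7.79 in 10B, 7.47 in 4A, 7.85 in 22B, 7.34 in 28B and 7.99 in 8B. The lowest, median and highest were 5.73, 6.96 and 7.60 in RND and 5.69, 6.26 and 6.91 in CND. In neither birth group did the diets overlap, with differences of 1.39 (SE 0.30) for RHFD against RND and 1.35 (SE 0.27) for CHFD against CND.

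The 3 C1q chains followed each other. C1qa (ILMN_1352382) was at 6.11, 7.27 and 7.49 in RHFD samples 21B, 25B and 3A, and in CHFD at 6.56 in 10B, 5.95 in 4A, 6.09 in 22B, 6.04 in 28B and 6.26 in 8B. RND spanned 4.68 to 6.26 with a median of 5.49, and CND 4.61 to 5.58 with a median of 5.04. All CHFD samples exceeded all CND samples, while RHFD 21B fell within the RND range. Its diet difference was 1.43 (SE 0.28) in IUGR and 1.11 (SE 0.25) in control-born rats, with detection on 5 of 6 arrays in each chow group.

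C1qb (ILMN_1352142) reached 7.38, 8.45 and 8.25 in RHFD samples 21B, 25B and 3A. CHFD samples had 7.93 in 10B, 6.47 in 4A, 6.47 in 22B, 7.58 in 28B and 7.57 in 8B. CHFD 4A and 22B lay within the CND range, which was 5.23 to 6.54 with a median of 5.95, and RND spanned 5.25 to 7.35 with a median of 6.88. C1qc (ILMN_1359739) showed the same order of groups, at 6.78, 7.47 and 7.78 in RHFD samples 21B, 25B and 3A and at 7.34, 5.88, 5.72, 6.53 and 7.01 in CHFD samples 10B, 4A, 22B, 28B and 8B. Here CHFD 22B was the sample inside the CND range of 4.38 to 5.85 (median 5.27), and RND ran from 5.13 to 6.65 (median 6.23). For both genes every RHFD sample exceeded every RND sample. Differences were 1.32 (SE 0.39) and 1.35 (SE 0.39) for C1qb and C1qc between RHFD and RND, and 1.31 (SE 0.34) and 1.30 (SE 0.34) between CHFD and CND.

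Cd14 (ILMN_1352209) was detected on every array and had its highest mean in CHFD. RHFD samples 21B, 25B and 3A had 10.54, 11.44 and 11.20, and CHFD samples 10B, 4A, 22B, 28B and 8B had 10.89, 11.27, 11.55, 11.90 and 10.74. The lowest, median and highest were 9.86, 10.80 and 10.93 in RND, and 9.19, 9.86 and 10.68 in CND. CHFD and CND did not overlap, whereas RHFD 21B lay within the RND range. The difference was 0.50 (SE 0.30) between RHFD and RND and 1.42 (SE 0.26) between CHFD and CND.

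Apoe (ILMN_1367529) was dim on chow, being detected on 6 of 6 arrays in RHFD, 6 in CHFD, 2 in RND and 1 in CND. Like Tyrobp, it passed the detection filter mainly through the high-fat arrays. It stood at 7.21 in RHFD 25B and 6.82 in RHFD 3A, but at 5.09 in RHFD 21B. CHFD samples had 5.60 in 10B, 5.27 in 4A, 5.08 in 22B, 5.59 in 28B and 4.92 in 8B. Chow samples lay between 4.46 and 5.18 (median 4.70) in RND and between 4.46 and 4.85 (median 4.72) in CND. Hence 2 of the 3 RHFD samples stood far above all others and the other one lay inside the RND range. The fitted diet difference was 1.56 (SE 0.29) in IUGR and 0.61 (SE 0.26) in control-born rats. Most chow arrays did not measure Apoe well above background, so these sizes depend on the background correction and were 0.61 and 0.18 in the same order without it.

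Read against all probes, 4 of the 8 genes (Fcer1g, Aif1, C1qa and Apoe) were higher in RHFD than in RND past the adjusted p threshold of 0.05 in the limma fit, where 0.559% of all tested probes were. Between CHFD and CND 5 of the 8 (Fcer1g, Tyrobp, Aif1, Cd14 and C1qa) were, against 0.961% of all tested probes. Samples of the 2 diets did not overlap for 4 of 8 genes in IUGR rats, where 2.51% of probes had all RHFD above all RND samples, and for 6 of 8 in control-born rats, where 1.21% had all CHFD above all CND samples. Tyrobp and Apoe are in these counts although they passed the detection filter mainly through the high-fat arrays. Of the 6 genes detected on at least 5 arrays of every group, 3 passed between RHFD and RND and 4 between CHFD and CND. The diets did not overlap for 4 of these 6 in either birth group. The genes were selected on these contrasts, so nothing is read from these counts. The IUGR count fell to 0 without RHFD 25B or without RHFD 3A. The control-born count ranged from 3, without CHFD 10B, CHFD 8B or CND 18A, to 7, without RND 17B, RND 35B or CHFD 4A. With the 12 arrays of 1 chip alone, the IUGR count was 0 on chip 1 and 1 on chip 2. The control-born count was 5 on chip 1 and 0 on chip 2. The 5 on chip 1 were not the 5 of the main fit, as C1qb and C1qc took the place of Tyrobp and C1qa. Over all tested probes, in either direction, 12 passed on chip 1 and 31 on chip 2 between RHFD and RND. Between CHFD and CND 145 passed on chip 1 and 5 on chip 2. On chip 1 the CND samples carry the letter A and the CHFD samples the letter B. When no background was subtracted, the diet differences of all 8 genes were smaller. Between RHFD and RND they were 0.95 for Fcer1g, 0.12 for Tyrobp, 0.89 for Aif1, 0.48 for Cd14, 0.64 for C1qa, 0.80 for C1qb, 0.67 for C1qc and 0.61 for Apoe. Between CHFD and CND they were 0.90 for Fcer1g, 0.20 for Tyrobp, 0.76 for Aif1, 1.32 for Cd14, 0.38 for C1qa, 0.66 for C1qb, 0.52 for C1qc and 0.18 for Apoe. Cd14 was the least altered, and the 3 C1q genes, Aif1, Tyrobp and Apoe changed by more than 1.5 times in both comparisons.

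**Figure D2:**
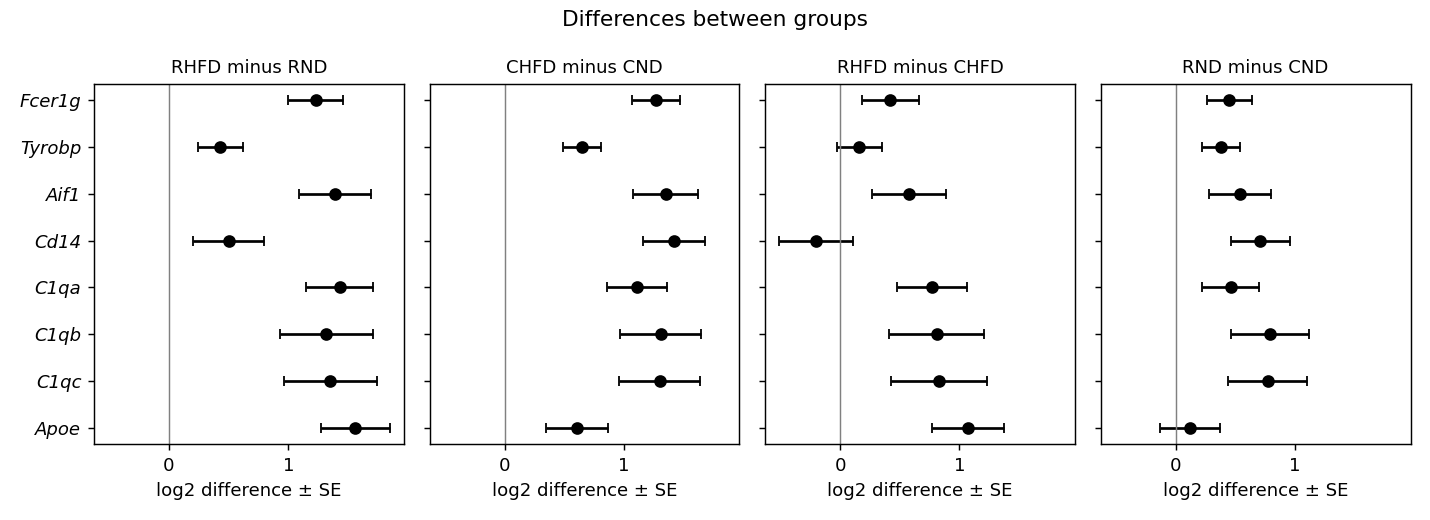
Log2 difference (horizontal axis, with SE) for each of the 8 genes in 4 comparisons: RHFD minus RND, CHFD minus CND, RHFD minus CHFD and RND minus CND. The diet differences lie between 0.43 and 1.56, and those between birth groups between -0.20 and 1.07.

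Whether birth status went with these genes was asked on each diet. On chow all 8 means were higher in RND than in CND, from 0.12 for Apoe to 0.79 for C1qb. None passed the threshold (limma, adjusted p 0.277 to 0.87), and 0% of all tested probes did. At an unadjusted p under 0.05, 6 of the 8 were higher in RND, against 6.37% of all probes, and of the 6 genes detected on at least 5 arrays of every group 5 were. The same arrays of CND and RND also entered the diet contrasts that chose the genes, and the genes move together, so these are not independent counts. Cd14 had the smallest p, with a log2 difference of 0.71 (SE 0.25, 95% confidence interval 0.19 to 1.23, adjusted p 0.277). C1qb differed by 0.79 (SE 0.33, 0.11 to 1.47, adjusted p 0.347), C1qc by 0.77 (SE 0.33, 0.10 to 1.45, adjusted p 0.352) and Fcer1g by 0.45 (SE 0.19, 0.06 to 0.85, adjusted p 0.352). No gene had all RND samples above all CND samples, which 0.392% of probes had. Of 6 RND samples, 5 exceeded all CND samples for C1qb and 4 for Tyrobp, Cd14 and C1qc. For Aif1 3 did, and for Fcer1g, C1qa and Apoe 2 did. The share of all probes with such partial separation was not computed, so nothing is read from these numbers. Without background correction the difference was 0.65 for Cd14, 0.38 for C1qb, 0.30 for Fcer1g, 0.29 for C1qc and Aif1, 0.15 for C1qa, 0.12 for Tyrobp and 0.03 for Apoe. For Tyrobp the RND level was at least 1.04-fold that of CND, with means of 4.91 and 4.53.

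The difference on chow lay almost wholly on 1 chip. On chip 1 RND exceeded CND by 0.24 (Apoe) to 1.47 (C1qb), with 1.41 for C1qc, 1.36 for Cd14, 1.06 for Aif1 and 1.02 for Fcer1g. On chip 2 the same differences were -0.11 to 0.15. Cd14, for example, averaged 10.85 in RND and 9.48 in CND on chip 1, and 10.26 in RND and 10.21 in CND on chip 2. Fcer1g averaged 8.10 in RND and 7.08 in CND on chip 1, against 7.59 in RND and 7.70 in CND on chip 2. The chips held different samples of these groups. CND samples carried the letter A on chip 1 and B on chip 2, while all RND samples carried B. On chip 1 birth status on chow thus coincided with the title letter, and on chip 2 both chow groups carried B. Chip, letter, birth status and sample therefore cannot be told apart in this difference. The 4 samples that stood on both chips differed between chips by -0.27 to 0.48 (chip 2 minus chip 1) over the 8 genes. The diet differences were on the same side on both chips, at 0.18 to 1.49 on chip 1 and 0.69 to 1.90 on chip 2 between RHFD and RND, and at 0.68 to 2.02 on chip 1 and 0.51 to 1.05 on chip 2 between CHFD and CND.

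**Figure D3:**
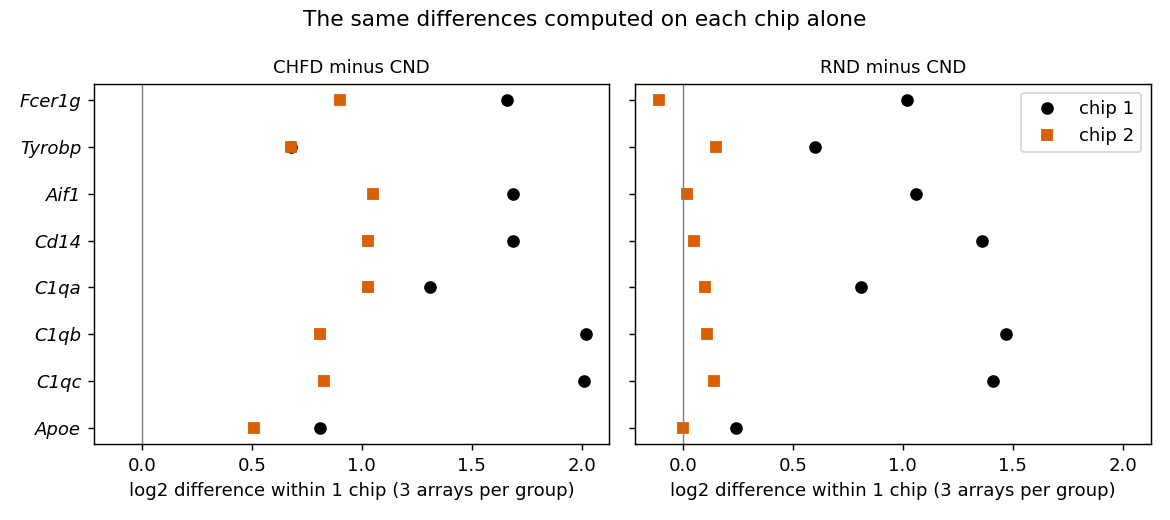
Log2 difference (horizontal axis) of each gene within chip 1 (circles) and within chip 2 (squares), 3 arrays per group on each. CHFD minus CND is positive for every gene on both chips, whereas RND minus CND reaches 1.47 on chip 1 and stays between -0.11 and 0.15 on chip 2. For Tyrobp in CHFD minus CND both markers fall at 0.68.

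On high-fat diet 7 of the 8 means were higher in RHFD than in CHFD and that of Cd14 was lower. None passed the threshold (limma, adjusted p 1 for all 8), and 0.00981% of all tested probes, 1 probe, did. At an unadjusted p under 0.05, Apoe and C1qa were higher in RHFD, 2 of 8 against 0.432% of all probes. Of the 6 genes detected on at least 5 arrays of every group, 1 was. The RHFD and CHFD arrays also entered the diet contrasts that chose the genes, and Apoe passed the detection filter mainly through these arrays. The genes move together as well, so these are not independent counts. Apoe differed by 1.07 (SE 0.30, 95% confidence interval 0.45 to 1.70) and C1qa by 0.77 (SE 0.29, 0.17 to 1.37). C1qb (0.81, SE 0.40, -0.03 to 1.64) and C1qc (0.83, SE 0.40) had differences of like size with wider errors, and Cd14 differed by -0.20 (SE 0.31, -0.84 to 0.43). Fcer1g, at 0.42 (SE 0.24), was the gene for which all RHFD samples exceeded all CHFD samples, 1 of 8 where 0.569% of probes did so.

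With 3 RHFD samples each one weighs heavily. RHFD 21B was the lowest of its group in all 8 genes. Without it Apoe differed by 1.72 between RHFD and CHFD and passed the threshold (limma, adjusted p 0.00184), and without RHFD 25B it differed by 0.66 with an adjusted p of 1. The adjusted p of Apoe in this comparison ranged from 0.00184 to 1 over all alternatives. Cd14 changed direction, to 0.06, without RHFD 21B. Without background correction the differences between RHFD and CHFD were 0.46 for Apoe, 0.41 for C1qa, 0.52 for C1qb, 0.44 for C1qc, 0.42 for Aif1, 0.34 for Fcer1g, 0.04 for Tyrobp and -0.19 for Cd14.

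Averaged over the diets, the IUGR groups were higher for all 8 genes, by 0.25 (Cd14) to 0.80 (C1qb and C1qc). None passed the threshold (limma, adjusted p 1 for all 8), which 0.00981% of probes did. At an unadjusted p under 0.05, 7 of 8 were higher, against 2.35% of all probes. Of the 6 genes detected on at least 5 arrays of every group, 5 were. All these arrays also entered the diet contrasts that chose the genes, and the genes move together, so these are not independent counts. The averaged differences were 0.36 to 0.91 on chip 1 alone and -0.09 to 0.67 on chip 2 alone. Without RHFD 21B Apoe passed here too, at 0.92 (adjusted p 0.0157, against up to 1 under the other alternatives). The interaction, which asks whether the diet difference differed between birth groups, passed for 0 of 8 genes and for 0% of probes. At an unadjusted p under 0.05 it did for 2 of 8, against 4.05% of probes, and these pointed opposite ways. Of the 6 genes detected on at least 5 arrays of every group it did for 1. The interaction is the difference between the 2 diet contrasts that chose the genes, so nothing is read from these counts. Apoe, 1 of the 2, passed the detection filter mainly through the high-fat arrays. For Apoe the diet difference was larger in IUGR rats by 0.95 (SE 0.39, 95% confidence interval 0.14 to 1.76, adjusted p 0.972), and for Cd14 it was smaller in IUGR rats, at -0.91 (SE 0.40, -1.73 to -0.09, adjusted p 0.972). On chip 1 and chip 2 alone the interaction was 0.68 and 1.13 for Apoe and -1.43 and -0.29 for Cd14. It was 0.53 for Apoe without RHFD 25B and 1.60 without RHFD 21B, and without background correction it was 0.43 for Apoe and -0.85 for Cd14. As the chow levels of Apoe were mostly not above background, the size of its interaction depends on that step. For the other 6 genes it lay between -0.22 and 0.31.

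How the genes varied among samples of the same group was examined after subtracting each group's mean and the chip difference, over the 20 samples. These are descriptions, as all points share arrays and normalization. C1qb and C1qc correlated at r = 0.89, C1qa and C1qc at 0.82 and C1qa and C1qb at 0.79. Aif1 correlated with C1qa at 0.88 and with Fcer1g at 0.82. Apoe was closest to C1qa, at 0.72. Cd14 stood apart from Aif1 and the C1q genes: its r was 0.05 with Aif1, 0.16 with C1qa, 0.08 with C1qb and 0.07 with C1qc. With Fcer1g, Tyrobp and Apoe its r was 0.34, 0.38 and 0.39. Tyrobp was also loosely tied, at 0.39 with Aif1, 0.49 with C1qa, 0.40 with C1qb and 0.37 with C1qc. Against the mean of the 7 other genes, r was 0.89 for C1qa, 0.86 for Fcer1g, 0.83 for C1qb, 0.82 for C1qc, 0.81 for Aif1, 0.59 for Apoe, 0.52 for Tyrobp and 0.21 for Cd14.

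**Figure D4:**
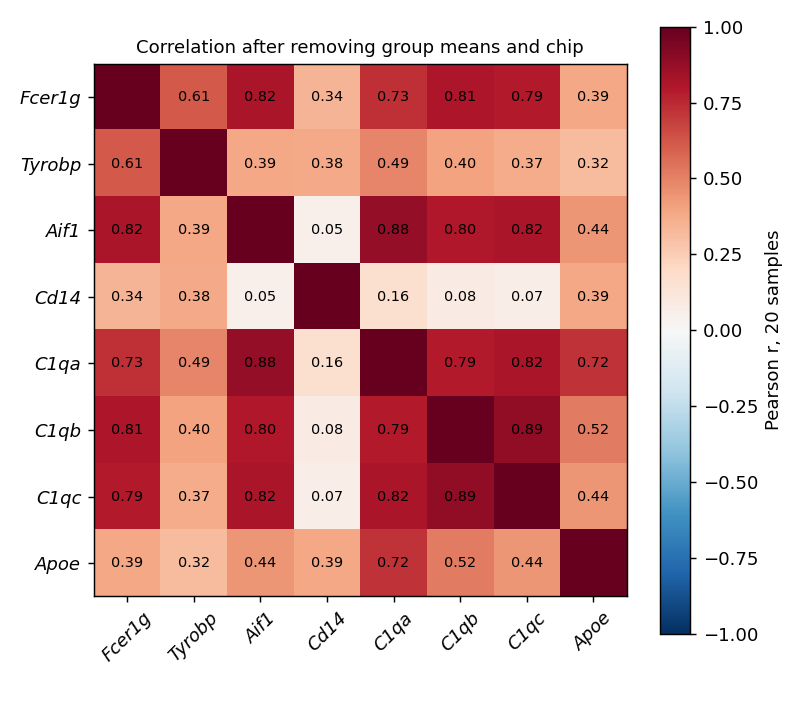
Pearson r between each pair of the 8 genes (rows and columns) over 20 samples, after each group's mean and the chip difference were removed. Fcer1g, Aif1 and the C1q genes form a block of high values, up to 0.89 for C1qb and C1qc, while the Cd14 row stays low against Aif1 and the C1q genes.

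The same samples were repeatedly at the ends of their groups. RHFD 21B was lowest in 8 of 8 genes. RND 33B was highest and RND 35B lowest in 6 of 8 each. CND 38B was highest and CND 18A lowest in 6 of 8 each, and CHFD 10B was highest in 5 of 8. RND 35B shows how Cd14 parted from Aif1 and the C1q genes. It had 10.92 for Cd14, near the top of its group. Its 5.25 for C1qb, 4.68 for C1qa and 5.73 for Aif1 were the lowest of the group. The mean over the 8 genes was 7.22 to 8.12 in RHFD, 7.0 to 7.52 in CHFD, 6.0 to 7.21 in RND and 5.61 to 6.60 in CND.

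Genes outside the set were ranked by how closely their deviations followed the mean of the 8, again over 20 samples. The 10 closest were RT1-Db1 (r = 0.84), Resp18 (0.82), Cd74 (0.80), Ccr3 (0.79), Dnase1l3 (0.78), RT1-Da (0.78), Lag3 (0.77), Hbb (0.76), Arhgdib (0.74) and Psmd5 (0.74). RT1-Db1 and RT1-Da encode MHC class II chains and Cd74 the invariant chain that accompanies them. Their differences were 0.64 (RT1-Db1), 0.84 (RT1-Da) and 0.99 (Cd74) between RHFD and RND, and 1.91, 1.91 and 1.65 in the same order between CHFD and CND. Hbb, a haemoglobin gene of red cells, followed the 8 genes within groups but differed by -0.67 between RHFD and RND and by -2.76 between CHFD and CND, the opposite sign to theirs.

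A minority of the other tested genes of these pathways passed the test. Among 11 tested genes of the further phagocyte list, 0 passed between RHFD and RND and 2 rose in CHFD, Laptm5 (1.57, adjusted p 0.00544), a lysosomal membrane protein of leukocytes, and Ncf1 (1.13, adjusted p 0.0111), a subunit of the phagocyte oxidase. The list's median was 0.25 between RHFD and RND and 0.39 between CHFD and CND, against 0 and 0 over all probes and 1.34 and 1.28 for the 8 genes.

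Of 11 tested complement genes other than C1q, Clu and Cd55 rose and C2 fell in RHFD relative to RND. Clu, which encodes the complement-binding chaperone clusterin, changed by 1.25 (adjusted p 0.0164), Cd55, a membrane inhibitor of complement, by 1.31 (adjusted p 0.0493), and C2, the classical pathway protease cleaved after C1q binds, by -1.01 (adjusted p 0.0293). In CHFD against CND Clu alone of these 11 passed, at 1.00 (adjusted p 0.0237), with Cd55 at 0.75 and C2 at -0.39. The list medians were -0.10 in IUGR and -0.04 in control-born rats.

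Among 13 tested receptors and signalling partners of the ITAM adaptors, Plcg2 and Ptpn6 rose in both birth groups. Plcg2, a phospholipase downstream of these adaptors, changed by 1.59 between RHFD and RND (adjusted p 0.0164) and by 1.18 between CHFD and CND (adjusted p 0.036). Ptpn6, the phosphatase SHP-1, changed by 0.76 between RHFD and RND (adjusted p 0.0343) and by 0.66 between CHFD and CND (adjusted p 0.0253). Of 3 tested genes around Csf1r, Ptpn6 was the one that passed, and the ligand genes Il34 (0.30 between RHFD and RND, 0.60 between CHFD and CND) and Csf1 (0.19 and 0.05 in the same order) did not.

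Around Cd14, 7 genes of lipopolysaccharide sensing were tested. Tlr2, a receptor for bacterial lipoproteins that CD14 also serves, had a difference of -0.14 (adjusted p 0.938) between RHFD and RND and rose by 1.16 (adjusted p 0.0293) between CHFD and CND. The other 6 passed in neither birth group, with Myd88 at 0.30 in IUGR and 0.45 in control-born rats. Around Apoe, 14 lipid handling genes were tested. Fabp4, a fatty acid carrier of adipocytes and macrophages, fell by 3.88 (adjusted p 0.000439) between RHFD and RND, with -1.55 (adjusted p 0.125) between CHFD and CND. The cholesterol exporter Abcg1 had 0.71 (adjusted p 0.0667) between RHFD and RND and rose by 0.64 (adjusted p 0.0485) between CHFD and CND. Of 10 actin and lysosomal partners of Aif1 and Cd68, none passed between RHFD and RND, and the leukocyte actin genes Coro1a (1.28, adjusted p 0.00784) and Lcp1 (1.26, adjusted p 0.0253) rose in CHFD.

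Some markers of other leukocytes also passed in the diet comparisons, 1 gene in RHFD and more in CHFD, and their part in the values of the 8 genes was not tested. Of 14 tested T and natural killer cell markers, 1 rose in RHFD, Klrd1 (1.25, adjusted p 0.0409, named after its values were seen), and 7 rose in CHFD, among them Cd8a, which differed by 1.96 (adjusted p 0.0919) between RHFD and RND and by 2.40 (adjusted p 0.00784) between CHFD and CND. Their mean level was 6.82 to 7.37 in RHFD, 6.23 to 8.23 in CHFD, 5.30 to 6.91 in RND and 5.0 to 5.98 in CND, with Cd4 and Cd5 detected on no array. Of 8 tested MHC class II and dendritic cell genes, 0 passed in RHFD and 4 (RT1-Ba, Cd74, RT1-Da and RT1-Db1) rose in CHFD, with a mean level of 7.54 to 8.20 in RHFD, 7.55 to 8.22 in CHFD, 6.83 to 8.06 in RND and 6.26 to 7.37 in CND, and with Flt3, Xcr1, Clec9a, Ciita and RT1-DOb detected on no array. Of 6 pan-leukocyte genes 0 passed in RHFD and 3 (Arhgdib, Cd48 and Cd37) rose in CHFD, at a mean of 6.80 to 7.27 in RHFD, 6.83 to 7.68 in CHFD, 6.13 to 6.80 in RND and 5.80 to 6.49 in CND. Of 8 mast cell and granulocyte markers 0 passed in RHFD and 1 rose in CHFD (Mcpt10, 1.37, adjusted p 0.00901), at 5.88 to 6.33 in RHFD, 5.62 to 6.59 in CHFD, 5.26 to 5.47 in RND and 5.18 to 5.86 in CND.

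Within groups the deviations of the 8 genes correlated at r = 0.81 with the MHC class II and dendritic list and 0.74 with 3 red cell genes. For the further phagocyte list r was 0.71, for the pan-leukocyte list 0.59 and for the T and natural killer list 0.51. It was 0.36 for the epithelial list, 0.25 for the adipocyte list and 0.22 for the endothelial list. It was 0.18 for 4 B and plasma cell genes and 0.08 for the mast cell and granulocyte list. Among the pathway lists r was 0.62 for the other complement genes and 0.62 for the actin and lysosomal partners. The Csf1r list had 0.57, the ITAM list 0.49, the lipopolysaccharide list 0.33 and the lipid list 0.24. No B or plasma cell gene and none of 12 epithelial genes passed in either diet comparison, with epithelial medians of 0.09 between RHFD and RND and 0.06 between CHFD and CND. Of 3 endothelial and 3 red cell genes none passed in either diet comparison, and of 5 adipocyte genes Fabp4 was the one that did, in RHFD as given above. No tested gene of any of these lists passed between RND and CND or between RHFD and CHFD.

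**Figure D5:**
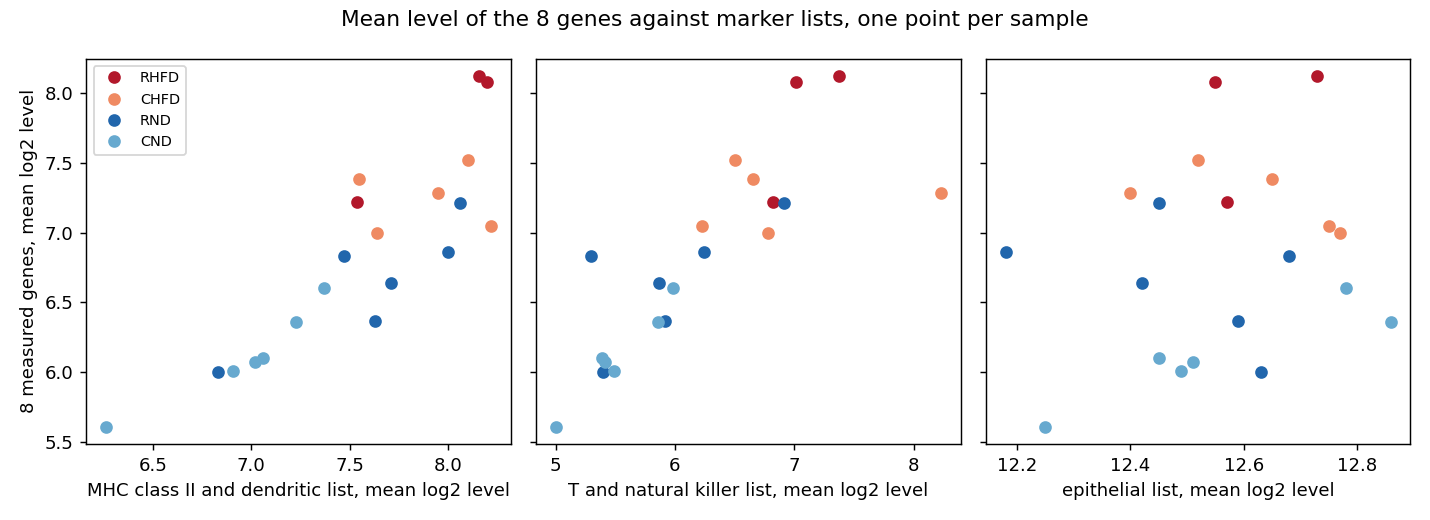
Mean log2 level of the 8 genes (vertical axis) against the mean log2 level of the MHC class II and dendritic list, the T and natural killer list and the epithelial list (horizontal axes), 1 point per sample, coloured by group. High-fat samples (RHFD 7.22 to 8.12, CHFD 7.0 to 7.52) sit toward the upper right of the first 2 panels, while the epithelial list spans 12.18 to 12.86 with the groups mixed.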

How the data were processed

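RNA of colonic epithelial cells, released from proximal and distal colon with EGTA and EDTA, was labelled with biotin and hybridized to Illumina rat arrays, per the labels' protocols; GenomeStudio is named in the submitters' processing notes, with no version. Per the file headers, the deposited non-normalized table gives the average intensity of every probe on every array, with its detection p-value. The intensities in the authors' series matrix were quantile normalized without background subtraction, as their values show, and served as an alternative.

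The neqc function of limma 3.58.1 (R 4.3.3, statmod 1.5.0) subtracted background from these intensities, using a negative control level derived from detection p-values and an offset of 16, then quantile normalized them and took log2. The 10193 probes detected (p-value under 0.05) on 6 arrays or more were fitted together over 24 arrays with group and chip, and with arrays sharing a title number as a random block (correlation 0.812). Benjamini-Hochberg adjustment ran over all tested probes. Of 22523 probes, 13793 pair with 1 gene symbol, 8730 with none and 0 with several; symbols and positions are from RefSeq (GRCr8). The number of arrays limits the precision.

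The members, gene lists and tests were chosen with earlier results of these data known. Named are all members with a probe, up to 4 genes of each list by smallest p of the diet difference averaged over birth status, and the 10 genes whose within-group deviations correlated most with the members. Functions were tested on simulated data. Alternatives were the background correction, scaling, authors' values, detection filter, handling of repeated arrays, chip, samples fitted, variance prior and leaving out each sample.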

Additional observations from a re-analysis of the deposited data

Results flagged for a closer look

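In 3 of 24 sets of 5 or 6 samples (8 genes in CHFD, RND and CND, while RHFD with 3 samples was not tested), 1 sample lay far from the rest by Dixon's criterion, which chance gives in about 1 of 20 sets. Fcer1g was low in CHFD 22B, at 8.44 on the log2 scale, where the other 4 CHFD samples lay between 8.69 and 8.73. Tyrobp was high in RND 33B, at 5.59, above every high-fat sample. C1qb was low in RND 35B, at 5.25, the sample in which Cd14 was at 10.92. The causes were not tested.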

How the results depend on the processing

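Of 1520 values of single genes under 12 alternatives and 20 samples left out in turn, 1406 kept direction and side of the threshold, 49 no longer passed, 20 newly passed and 45 changed direction. In the main fit genes passed only in the diet differences, so all 49 losses lie there. Birth status and interaction values had no call to lose, so the 1406 does not measure how stable the calls were. The causes were not tested. The count of genes higher in CHFD than in CND, 5, became 3 without background correction, 3 with the authors' normalized values, 2 with median scaling, 0 on chip 2 alone, 7 with every array as its own sample and 7 with no chip term, and ranged from 3 to 7 with a sample left out. Tyrobp lost its call most often, under 19 settings. The count for RHFD against RND, 4, became 0 on chip 1 alone, 1 on chip 2 alone, 3 with arrays of a title number averaged and 6 with every array as its own sample, and ranged from 0 to 4 with a sample left out. The counts of 0 for RHFD against CHFD and for birth status averaged over diet ranged from 0 to 1 with a sample left out, and the 1 was Apoe without RHFD 21B. The counts of 0 for RND against CND and for the interaction did not change under any alternative run.

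Changes of direction were mostly in interactions near 0. That of Fcer1g became 0.05 without background correction, 0.04 with the authors' values and 0.53 on chip 2, and ranged from -0.16 to 0.11 with a sample left out. That of C1qb became -0.02 without a detection filter, -0.09 with every array as its own sample and -1.13 on chip 1 (-0.29 to 0.34 with a sample left out), and that of C1qc -0.07 and -1.21 under the last 2 of these settings (-0.16 to 0.33). On chip 1 the interaction was -0.51 for Aif1 (-0.21 to 0.31 with a sample left out) and -0.16 for C1qa, and on chip 2 it was 0.01 for Tyrobp. On chip 2 RND minus CND was -0.11 for Fcer1g and -0.0027 for Apoe, and the averaged birth status difference of Cd14 was -0.09. RHFD minus CHFD for Cd14 ranged from -0.39 to 0.06 with a sample left out.

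Limits are the 3 RHFD samples, the repeated arrays, of which the labels do not say what was repeated, and the chip and title letter that coincide in CND. On chip 1 that letter also separates CND from RND and CHFD. Dim signals are a further limit, as all 8 diet differences were smaller without background correction. In CHFD against CND they were smaller by more than 1.5 times for Tyrobp, Apoe, Aif1 and the C1q genes. Tyrobp and C1qa then left the count of genes past the threshold, from which nothing is read. The fit of CHFD and CND alone used the correlation estimated from all arrays, because 1 repeated sample was too few to estimate one. No paired analysis was possible because the groups share no title number.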
